A study of Rattus norvegicus with 8 samples.

Results

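The 10 genes described here encode the folding machinery of the endoplasmic reticulum and the XBP1 arm of the unfolded protein response: Hspa5, Hsp90b1, Pdia4, Hyou1, Dnajb9, Sdf2l1, Creld2, Manf, Xbp1 and Herpud1. They were taken by symbol. Each gene had 1 probe set that the platform annotation assigns to it alone, and all 10 were among the 8690 genes tested, out of 18166 genes with a probe set. RNA was measured on 8 Affymetrix arrays of liver from male Sprague-Dawley rats, an outbred strain. The 4 groups of animals were rats fed ethanol chronically and given AM21, ethanol-fed rats left untreated, pair-fed carbohydrate control rats given AM21, and pair-fed rats left untreated. AM21 is an antisense oligonucleotide with locked nucleic acid bases against the microRNA miR-21, injected at 7.5 mg/kg into the abdomen 72 h before partial hepatectomy (PHx) and again directly after it. Each group was sampled 24 h after removal of 70% of the liver and at the operation itself (0 h). Every array is 1 pool of RNA from 3 animals (AM21) or 4 animals (untreated), and the same animals gave both times. The spread between animals was therefore not measured, and p-values rest on the spread between pools or, for diet and AM21, between arrays, of which each pool gave 2. Sham-operated rats and rats given a control oligonucleotide were not analysed here. A change at 24 h therefore cannot be told apart from an effect of surgery or of the hours between samples. Tissue at 24 h came from the liver left after the operation, so parts of the liver cannot be told apart from time either. In the AM21 pools the 24 h arrays also followed the second injection, which cannot be told apart from PHx there. The averaged AM21 difference joins arrays from before and after that injection. AM21 cannot be told apart from the cohort that received it.

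The endoplasmic reticulum folds the proteins that a hepatocyte secretes, among them most of the proteins of blood plasma. BiP, the product of Hspa5, holds unfolded chains and also keeps the 3 sensors IRE1, ATF6 and PERK inactive. When unfolded protein builds up, IRE1 splices Xbp1 mRNA into the form that encodes the active transcription factor, and ATF6 is cut to release another. Both raise chaperones and the degradation machinery that returns misfolded proteins to the cytosol. The array reads the total level of Xbp1 RNA, so splicing was not measured.

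In human and mouse cells the response acts through short promoter elements, and 6 of the 10 genes held an exact one. RefSeq promoter windows (GRCr8, 250 bases before to 50 after an annotated start) were available for 9 of the 10 genes, all but Manf. They were searched on both strands for the ER stress response element ERSE (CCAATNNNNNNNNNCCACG), in which N is any base, for ERSE-II (ATTGGNCCACG) and for the core of the unfolded protein response element UPRE (TGACGTGG). Hspa5, Hsp90b1, Creld2 and Xbp1 held an exact ERSE, against 0.0659% of all 33365 distinct windows. Hyou1 and Herpud1 held an exact ERSE-II, against 0.051% of the windows. Hyou1 alone of the 9 held the UPRE core, which overlaps its distal ERSE-II (0.596% of windows). With 1 mismatch allowed in the 10 fixed letters of ERSE, Pdia4, Hyou1 and Herpud1 held it as well, making 7 of 9 genes, against 1.41% of windows. The 6 windows with an exact element are shown because the same elements occur in genes that rose after PHx and in Herpud1, which fell. Capitals mark the fixed letters of each element, read 5′ to 3′ along the gene's own strand. The windows are chr3:38452766-38453065 (plus strand) for Hspa5, chr7:23012244-23012543 (minus) for Hsp90b1, chr8:53602632-53602931 (plus) for Hyou1, chr7:121789134-121789433 (plus) for Creld2, chr14:84604373-84604672 (plus) for Xbp1 and chr19:10614658-10614957 (minus) for Herpud1.
Hspa5: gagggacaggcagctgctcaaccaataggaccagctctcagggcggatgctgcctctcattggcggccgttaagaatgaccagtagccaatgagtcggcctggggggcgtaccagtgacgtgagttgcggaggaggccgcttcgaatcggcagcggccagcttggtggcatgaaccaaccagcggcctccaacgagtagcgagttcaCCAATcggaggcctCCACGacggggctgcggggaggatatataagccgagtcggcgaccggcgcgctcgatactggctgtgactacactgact
Hsp90b1: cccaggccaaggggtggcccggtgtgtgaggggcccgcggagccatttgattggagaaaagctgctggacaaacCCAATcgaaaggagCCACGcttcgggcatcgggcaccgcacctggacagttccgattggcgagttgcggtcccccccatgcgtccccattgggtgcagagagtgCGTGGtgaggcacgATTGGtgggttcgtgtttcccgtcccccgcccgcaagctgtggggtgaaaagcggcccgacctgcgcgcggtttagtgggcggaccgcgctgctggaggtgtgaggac
Hyou1: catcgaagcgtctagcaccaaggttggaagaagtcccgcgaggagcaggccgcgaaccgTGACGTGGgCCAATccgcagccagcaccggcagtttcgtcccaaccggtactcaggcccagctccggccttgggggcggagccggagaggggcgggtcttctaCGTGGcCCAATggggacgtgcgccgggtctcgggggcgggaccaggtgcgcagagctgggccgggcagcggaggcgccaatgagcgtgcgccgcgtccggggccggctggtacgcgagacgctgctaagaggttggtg
Creld2: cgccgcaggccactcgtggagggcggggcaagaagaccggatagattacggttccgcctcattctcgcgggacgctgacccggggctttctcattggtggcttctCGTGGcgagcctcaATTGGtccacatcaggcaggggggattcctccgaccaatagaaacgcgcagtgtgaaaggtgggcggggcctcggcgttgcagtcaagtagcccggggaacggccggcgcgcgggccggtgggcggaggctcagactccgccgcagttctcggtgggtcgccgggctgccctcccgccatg
Xbp1: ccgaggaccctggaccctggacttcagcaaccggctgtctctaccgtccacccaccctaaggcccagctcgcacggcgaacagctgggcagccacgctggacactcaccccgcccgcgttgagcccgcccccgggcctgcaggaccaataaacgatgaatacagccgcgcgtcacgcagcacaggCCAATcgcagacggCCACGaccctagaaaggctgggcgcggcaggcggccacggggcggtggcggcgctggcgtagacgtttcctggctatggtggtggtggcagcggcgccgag
Herpud1: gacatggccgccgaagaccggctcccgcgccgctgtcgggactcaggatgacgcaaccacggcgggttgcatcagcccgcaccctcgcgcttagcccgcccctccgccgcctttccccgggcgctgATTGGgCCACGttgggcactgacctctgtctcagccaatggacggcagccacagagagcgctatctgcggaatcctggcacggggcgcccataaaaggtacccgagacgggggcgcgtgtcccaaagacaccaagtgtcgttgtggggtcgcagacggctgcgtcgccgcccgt

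Counting the annotated start as base 0, the ERSE of Hspa5 ran from -43 to -25 and that of Xbp1 from -65 to -47, both on the gene's strand. Hsp90b1 had one on each strand, with the nearer from -72 to -54, and Creld2 had one on the opposite strand. Herpud1 carried its ERSE-II from -124 to -114. RefSeq's span of Herpud1 extends further upstream, so this window belongs to an inner start. Hyou1 has 2 annotated starts, and the window of the second holds none of the 3 elements. A match in a window is a description of its letters and does not show that a factor was bound in these livers. The genes were taken as genes of this response, and counts of genes stand beside shares of windows. The shares are therefore no test of enrichment.

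**Figure D1:**
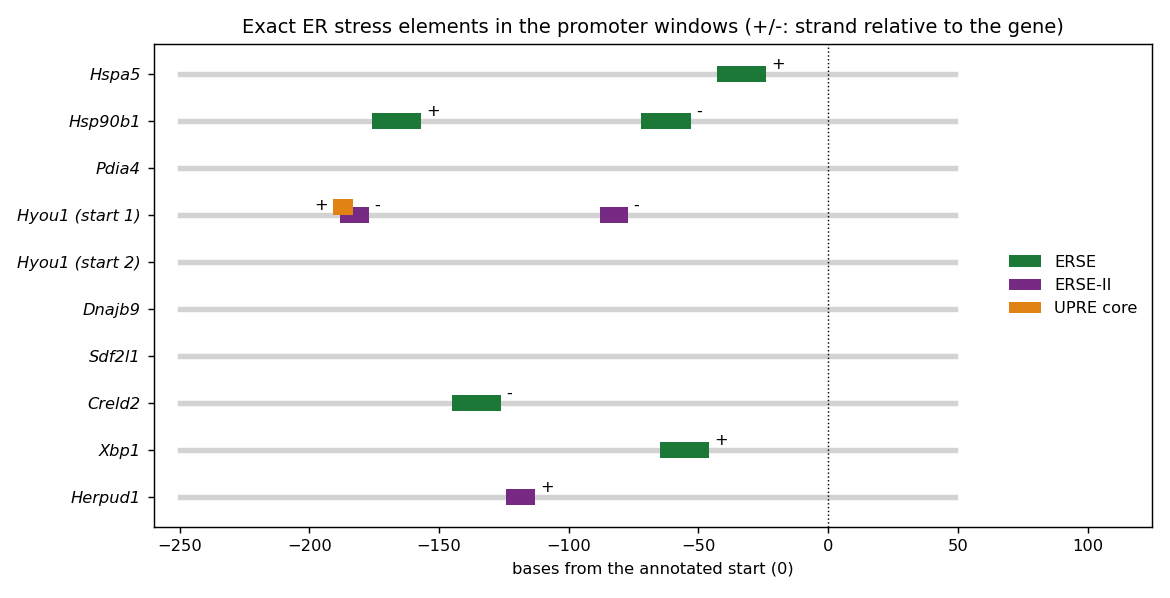
Positions of exact ERSE, ERSE-II and UPRE core matches in the promoter windows of 9 genes, in bases from the annotated start. Plus and minus give the strand relative to the gene. The windows of Pdia4, Dnajb9, Sdf2l1 and the second start of Hyou1 hold none, and both Xbp1 and Herpud1 hold 1.

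Levels are the deposited log2 values, so a difference of 1 is a doubling of signal, and they compare 1 gene between arrays, not genes with each other. The 10 genes averaged between 7.54 (Sdf2l1) and 11.20 (Hspa5), all above the minimum of 5 that a gene needed to be tested. Differences are given ± SE from limma, over 4 matched pools for the PHx response, with p-values adjusted over all 8690 genes and a threshold of 0.05. The 5 hepatocyte markers with a probe set had summed linear levels of 16017 to 16480 at 24 h and 16545 to 17332 at 0 h, and none was called. Of the neutrophil markers, 4 of 6 averaged under 5 and both that were tested were called higher, with summed levels of 189 to 620 at 24 h and 89 to 110 at 0 h. Sinusoidal endothelial markers (816 to 1192 at 24 h, 1010 to 1348 at 0 h) had 3 of 5 called lower, and lymphocyte markers (262 to 319 against 429 to 577) had both tested genes called lower. Of the 8 stellate cell markers (675 to 993 against 487 to 698), 6 were tested, with 2 called higher and 2 lower. Macrophage markers (2146 to 3458 against 2339 to 3407) had 1 of 11 higher and 3 lower, and cholangiocyte markers (143 to 207 against 121 to 188) had 0 of 2 called. All 7 plasma cell markers averaged under 5 (103 to 123 at 24 h, 121 to 190 at 0 h). In whole tissue, fewer cells of a type and less RNA per cell cannot be told apart, and the part of these shifts in the results below was not tested.

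At 24 h after PHx, 6 of the 10 genes were higher and 1 was lower. Creld2, Sdf2l1 and Hyou1 about doubled, Manf rose 1.51-fold, and Pdia4 and Hsp90b1 rose 1.28-fold and 1.26-fold, while Herpud1 fell to 0.521 of its 0 h level. Hspa5, Xbp1 and Dnajb9 did not pass. Of all 8690 genes tested, 28.1% changed, 15.3% higher and 12.8% lower. In 7 of the 10 genes every 24 h array was above every 0 h array (17.4% of all genes), and in 2 every 24 h array was below (13.7%).

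Among the chaperones, Hsp90b1 and Pdia4 rose slightly and Hyou1 nearly doubled, and Hspa5 did not pass. Hspa5, which encodes BiP, had levels of 11.34 and 11.37 at 24 h in the AM21 and untreated ethanol-fed pools and 11.24 and 11.51 in the AM21 and untreated pair-fed pools, against 11.12, 11.11, 11.17 and 10.75 at 0 h in the same order. The 0 h array of the untreated pair-fed pool was the lowest of the 8 and its 24 h array the highest. The fitted difference was 0.33 ± 0.13 (adjusted p = 0.101), and it was 0.18 without that pool. Hsp90b1, the Hsp90 chaperone of the reticulum, stood at 11.22, 11.20, 11.30 and 11.47 at 24 h against 10.95, 10.92, 10.98 and 10.98 at 0 h. The groups did not overlap, the 0 h arrays lay close together (10.96 ± 0.03, SD, n = 4 arrays), and the difference was 0.34 ± 0.09 (adjusted p = 0.0284). Pdia4, a disulfide isomerase, had 10.10, 10.14, 10.12 and 10.30 at 24 h and 9.76, 9.83, 9.95 and 9.72 at 0 h, a rise of 0.35 ± 0.10 (adjusted p = 0.0384). Both calls sat close to the threshold and were lost when any 1 pool was left out (adjusted p 0.0689 to 0.084 for Hsp90b1 and 0.0504 to 0.112 for Pdia4). Hyou1, a large chaperone that exchanges nucleotide on BiP, rose by 0.93 ± 0.17 (1.90-fold, adjusted p = 0.0103). Its levels were 8.32, 8.44, 8.16 and 8.64 at 24 h against 7.48, 7.52, 7.74 and 7.11 at 0 h, without overlap.

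Sdf2l1, Creld2 and Manf, small factors of the reticulum lumen, all rose. Sdf2l1, which forms a complex with the co-chaperone of BiP encoded by Dnajb11, had 7.82, 7.96, 8.01 and 8.27 at 24 h against 6.78, 6.97, 7.19 and 7.34 at 0 h. It rose by 0.94 ± 0.08 (1.92-fold, adjusted p = 0.0016), between 0.81 and 1.04 in the 4 pools. Creld2, an endoplasmic reticulum protein induced by folding stress, had 8.02, 8.21, 8.38 and 8.89 at 24 h against 7.29, 7.16, 7.64 and 7.10 at 0 h. It rose in every pool, by 1.79 in the untreated pair-fed pool and by 0.73 to 1.05 in the others (1.08 ± 0.18, 2.11-fold, adjusted p = 0.00786). Manf, a stress-induced protein that binds BiP and can be secreted, had 9.40, 9.33, 9.33 and 9.65 at 24 h against 8.69, 8.75, 9.10 and 8.78 at 0 h. Its rise of 0.60 ± 0.12 (adjusted p = 0.0133) did not pass without the AM21 ethanol-fed pool (0.56, adjusted p = 0.0572).

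Dnajb9 encodes a co-chaperone of BiP that is a classic target of spliced XBP1 and also restrains IRE1. It had levels of 9.55, 9.56, 9.38 and 9.56 at 24 h against 9.49, 9.15, 9.99 and 9.77 at 0 h. The 24 h arrays lay close together (9.51 ± 0.09, SD, n = 4 arrays) and the 0 h arrays were spread (9.60 ± 0.37), so the groups overlapped. The difference was -0.09 ± 0.17 (adjusted p = 0.731). Without the AM21 pair-fed pool it was 0.09.

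Herpud1 fell at 24 h, and Xbp1 lay lower without passing. Total Xbp1 RNA stood at 8.26, 8.26, 7.99 and 8.35 at 24 h against 8.37, 8.56, 8.90 and 8.51 at 0 h. Every 24 h array was below every 0 h array, but the size ranged from -0.91 in the AM21 pair-fed pool to between -0.11 and -0.29 in the others. The fitted difference of -0.37 ± 0.15 did not pass (adjusted p = 0.109). Herpud1 encodes a membrane protein that organises the ubiquitin ligase complex of reticulum-associated degradation. It had 8.39, 8.17, 8.53 and 8.40 at 24 h against 9.17, 8.93, 9.40 and 9.73 at 0 h, with no overlap. It fell in all 4 pools, by 1.33 in the untreated pair-fed pool and by 0.77 to 0.88 in the others, and the fit gave -0.94 ± 0.12 (adjusted p = 0.003). Herpud1 therefore moved against Hyou1, the other gene with an ERSE-II. Of the 4 genes with an exact ERSE, Creld2 and Hsp90b1 rose. Neither the higher level of Hspa5 nor the lower level of Xbp1 passed.

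**Figure D2:**
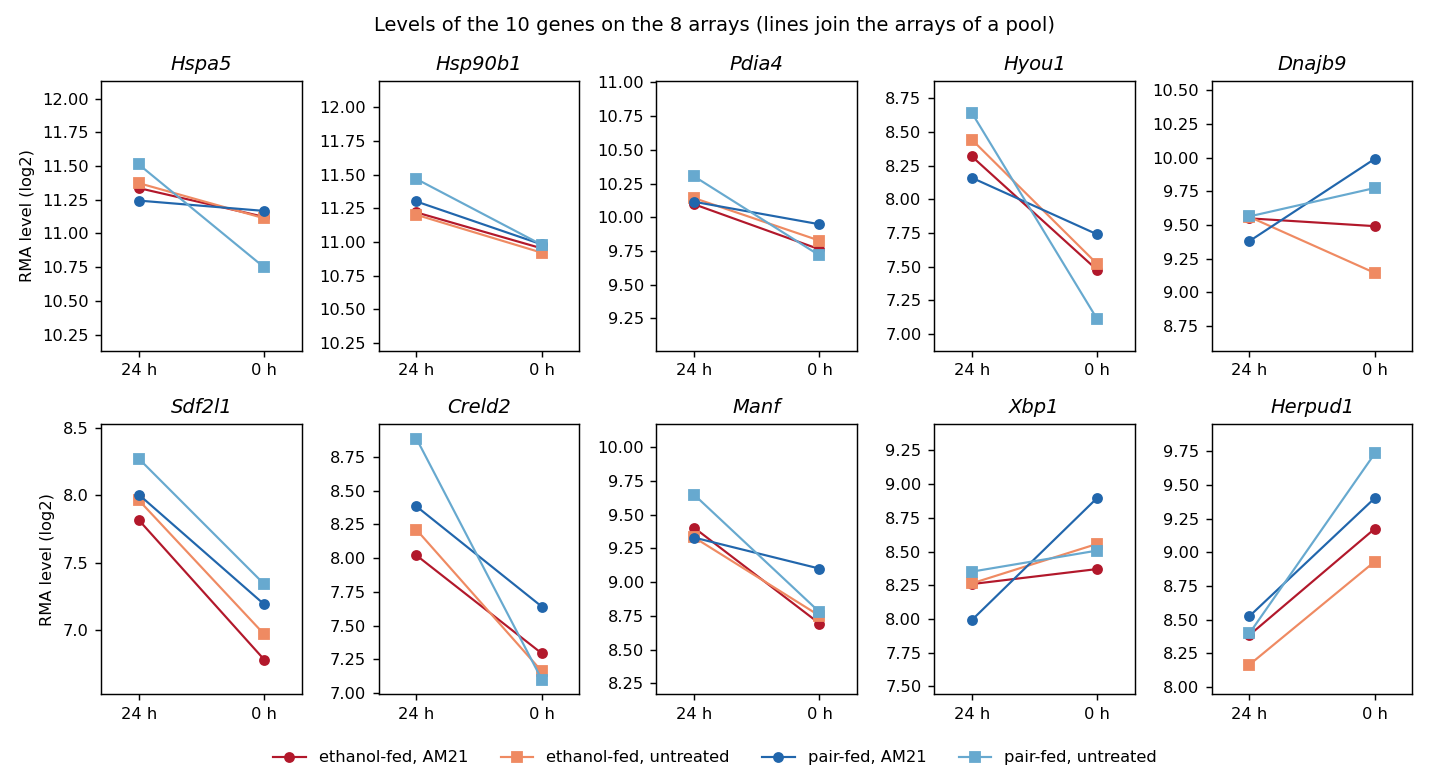
RMA levels (log2) of the 10 genes on the 8 arrays, 24 h left and 0 h right, with a line for each pool. All panels span 2 log2 units. The lines of Sdf2l1, Hyou1, Creld2 and Manf all run down from 24 h to 0 h, those of Herpud1 and Xbp1 all run up, and those of Dnajb9 cross.

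The untreated pair-fed pool gave the largest absolute response in 7 of the 10 genes, including Creld2 (1.79), Hyou1 (1.53), Manf (0.87), Hspa5 (0.76), Pdia4 (0.59) and Hsp90b1 (0.49), with Herpud1 the one that fell. Over all tested genes that pool held the largest absolute response in 36.8%. The AM21 pair-fed pool gave the smallest rise for Hspa5 (0.08), Pdia4 (0.17), Hyou1 (0.42), Manf (0.23) and Sdf2l1 (0.81). It was the pool of smallest absolute response for 21.2% of all genes, and its responses had an SD of 0.68 across genes, the widest of the 4 pools, which ran from 0.48 in the untreated ethanol-fed pool.

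**Figure D3:**
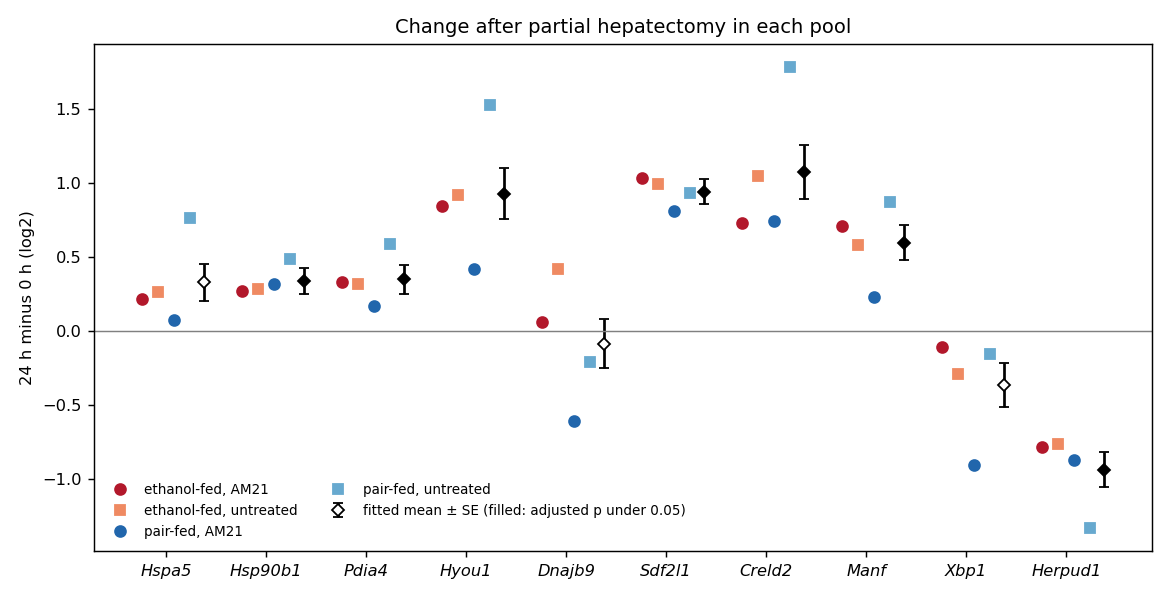
Difference of 24 h minus 0 h (log2) for each gene in each pool, with the fitted mean ± SE as a diamond, filled where the adjusted p was under 0.05. The untreated pair-fed pool lies highest for Hspa5, Hyou1, Creld2 and Manf and lowest for Herpud1.

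The other genes of the reticulum were counted in 8 lists. In the 6 lists of folding, degradation and transport, 44 of 116 tested genes were higher at 24 h and 4 lower. Over all tested genes 15.3% were higher and 12.8% lower. The median difference was 0.24 in these lists against 0.01 for all tested genes. The translocon and signal peptidase list, which brings new chains into the reticulum, had 13 of 21 genes higher and 0 lower, such as the translocon-associated Ssr2 (0.94 ± 0.10) and Ssr1 (0.85 ± 0.11) and the signal peptidase subunit Sec11c (0.75 ± 0.10). Of 18 genes of N-glycosylation 9 were higher and 1 lower. Uggt1, which re-glucosylates misfolded glycoproteins, rose by 0.80 ± 0.11, and the oligosaccharyltransferase subunits Dad1 and Stt3a by 0.59 ± 0.09 and 0.48 ± 0.08, while Dpm1, a subunit of the dolichol-phosphate mannose synthase, fell by 0.33 ± 0.09. Among 17 other chaperones 7 were higher and 0 lower, led by the prolyl isomerase Fkbp11 (1.37 ± 0.13) and the BiP co-chaperones Dnajb11 (1.09 ± 0.12) and Dnajc10 (0.77 ± 0.12). Of 15 genes of oxidative folding 6 were higher, such as Pdia6 (0.61 ± 0.09), Erp29 (0.54 ± 0.08) and Txndc5 (0.44 ± 0.09), and the peroxiredoxin Prdx4 was lower (-0.33 ± 0.09). Genes of transport between the reticulum and the Golgi had 5 of 23 higher, where 15.3% of all genes were. Among them were Kdelr3, a receptor that returns chaperones to the reticulum, at 0.86 ± 0.15, Tmed2 at 0.58 ± 0.09 and the coat subunit Copg1 at 0.55 ± 0.10. Sar1b, the GTPase of outbound vesicles, fell by 0.42 ± 0.12.

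In reticulum-associated degradation 4 of 22 genes were higher, where 15.3% of all genes were, among them Derl3 (1.05 ± 0.22), a channel subunit, Ubxn8 (0.78 ± 0.17) and the ubiquitin-conjugating enzyme Ube2g2 (0.52 ± 0.11). Herpud2, the paralog of Herpud1, was the 1 lower gene of that list (-0.36 ± 0.08, adjusted p = 0.0192). Of 11 sensors and regulators 0 were higher and 2 lower, where 15.3% of all genes were higher and 12.8% lower. The 2 were Ern1, which encodes IRE1, at -0.60 ± 0.13 (adjusted p = 0.0161) and the cell death suppressor Tmbim6 at -0.37 ± 0.08. Atf6 was at -0.17 ± 0.11 and did not pass (adjusted p = 0.306). In the ATF4 branch, which PERK controls, 0 of 6 tested genes passed by limma. Its values included Atf4 at -0.03 ± 0.10 and Ddit3, the gene of CHOP, at -0.32 ± 0.11 (adjusted p = 0.0738).

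**Figure D4:**
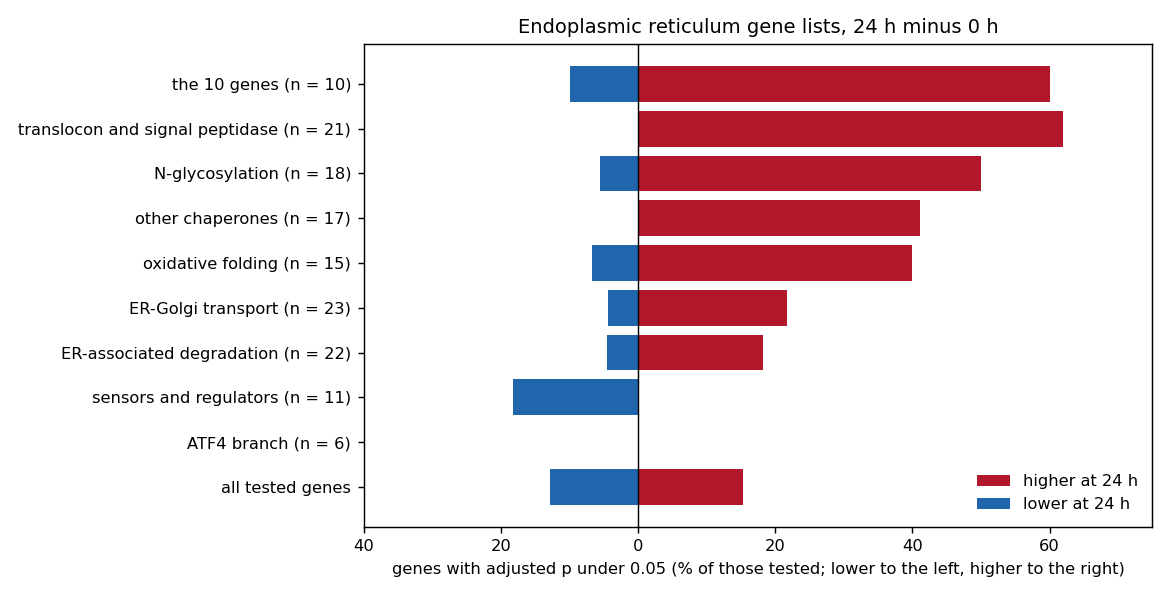
Share of tested genes with an adjusted p under 0.05 for 24 h minus 0 h, higher to the right and lower to the left, in the 10 genes, in 8 other lists of the endoplasmic reticulum and in all tested genes. The translocon list has 13 of 21 genes higher, and the sensor list has 0 higher and 2 lower of 11.

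Genes were also taken by promoter letters instead of by function. An exact ERSE or ERSE-II was found in 38 genes, of which 6 are among the 10 genes here. Of the other 32, 16 were tested, and 7 were higher and 0 lower, with a median difference of 0.24. Over all tested genes 15.3% were higher and 12.8% lower, with a median of 0.01. The 7 included the chaperone gene Calr (0.46 ± 0.09), Derl3 and Dnajb11, but also Cdc45, a replication factor (1.89 ± 0.18), and Cdc27, a subunit of the anaphase-promoting complex (0.37 ± 0.08). Calr, Derl3 and Dnajb11 were already counted among the 44 higher genes of the function lists, so these counts overlap. The chaperones Canx (0.18 ± 0.09, adjusted p = 0.161) and Dnajc3 (0.23 ± 0.08, adjusted p = 0.0738) did not pass. 

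By the pattern over the 8 arrays, the genes most like Hspa5 were Nagk (Pearson r = 0.99), an N-acetylglucosamine kinase, Sec61a1 (0.99), the channel of the translocon, Pmm2 (0.98), a mannose phosphate mutase of glycosylation, Polr1a (0.98), the large subunit of RNA polymerase I, and Heatr1 (0.98), a ribosome biogenesis factor. Among the 10 genes, Hyou1 (0.95) and Pdia4 (0.90) were most like Hspa5, and Herpud1 (-0.88) ran opposite. Herpud1 was most like Nox4 (0.99), Enpp2 (0.99) and Clmn (0.99), each with a lower level at 24 h. Xbp1 was most like Mtfr1l (0.97), Baz1a (0.97) and Slc66a2 (0.97), and its r with Dnajb9 was 0.53. By rank among the tested genes, Hyou1 stood at 51 in likeness to Hspa5. The nearest of the 10 to Xbp1 was Herpud1, at rank 1316. Xbp1 was in turn the nearest of the 10 to Herpud1, at rank 1358. All these values share the 8 arrays and include the step between the times. With the mean of each time taken out, r was 0.95 for Hspa5 with Hyou1, as over the 8 arrays. For Xbp1 it was 0.60 with Dnajb9 and -0.02 with Herpud1, against 0.53 and 0.66 over the 8 arrays. Xbp1 had higher values with Manf (0.86), Pdia4 (0.76) and Hyou1 (0.72), which were -0.41, -0.44 and -0.48 over the 8 arrays. With Hsp90b1, Sdf2l1, Creld2 and Hspa5 its r ran from 0.22 to 0.48.

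The second question was what chronic ethanol did to these genes. None of the 10 differed between the diets in the limma fit averaged over AM21 and time, where 0.46% of all genes did. At an unadjusted p under 0.05 there were 2, Sdf2l1 and Herpud1, against 15.4% of all genes. Sdf2l1 was at 6.78 and 6.97 in the AM21 and untreated ethanol-fed pools and 7.19 and 7.34 in the pair-fed pools at 0 h, and at 7.82 and 7.96 against 8.01 and 8.27 at 24 h. It lay lower in ethanol-fed liver in all 4 pairs, with a difference of -0.32 ± 0.08 (adjusted p = 0.127). Herpud1 was also lower in all 4 pairs, by 0.80 at 0 h in the untreated pair and by 0.14 to 0.23 in the others (-0.35 ± 0.13, adjusted p = 0.251). Hsp90b1 was the remaining gene that was lower in all 4 pairs, with a difference of -0.11 ± 0.08 (adjusted p = 0.588), and 8.99% of all genes were lower in all 4.

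The remaining diet differences ran from -0.33 ± 0.17 for Creld2 to 0.07 ± 0.12 for Hspa5. For Hspa5 and Hyou1 the untreated 0 h pair had ethanol-fed liver higher, by 0.36 and 0.41, and the AM21 0 h pair had differences of -0.04 and -0.26. In the same comparison Trib3, a pseudokinase of the ATF4 branch, was higher by 1.11 ± 0.13 (adjusted p = 0.0261), and 0 of the 116 genes of folding, degradation and transport passed. Trib3 averaged 5.58, near the minimum of 5, and was the 1 gene that passed of 6 tested in its list. Atf4 (0.09 ± 0.09, adjusted p = 0.726) and Ddit3 (0.20 ± 0.10, adjusted p = 0.404) did not pass for diet. Macrophage markers had summed levels of 3039 to 3458 in ethanol-fed and 2146 to 2599 in pair-fed liver, with 2 of 11 called higher.

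The response to PHx was then compared between the diets. None of the 10 genes passed in limma, against 0.529% of all genes, and 1 had an unadjusted p under 0.05 (10.9% of all genes). That gene was Dnajb9, whose response was 0.06 and 0.42 in the AM21 and untreated ethanol-fed pools and -0.61 and -0.21 in the AM21 and untreated pair-fed pools. The difference in response was 0.65 ± 0.20 (adjusted p = 0.253). With an intensity-dependent variance prior its adjusted p was 0.0234. The response within each diet was not tested by itself. Its diet differences were -0.50 and -0.63 at 0 h and 0.17 and -0.0033 at 24 h, in the AM21 and untreated pairs, and a fit of the 0 h arrays alone did not pass (-0.56, adjusted p = 0.154). A response above 0 in both ethanol-fed pools and below 0 in both pair-fed pools was seen in 3.98% of all genes. Xbp1 had a response of -0.11 and -0.29 in ethanol-fed pools and -0.91 and -0.16 in pair-fed pools, a difference of 0.33 ± 0.26 (adjusted p = 0.727).

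The study's main question was the part of miR-21, addressed by AM21. None of the 10 genes differed with AM21 in the limma fit averaged over diet and time, and 0.0% of all genes did. At an unadjusted p under 0.05 there was 1, Sdf2l1, against 6.19% of all genes. Sdf2l1 was lower with AM21 in all 4 pairs, by 0.15 to 0.27 (-0.19 ± 0.08, adjusted p = 0.798), as were 11.2% of all genes. The other 9 differences lay between -0.04 for Xbp1 and 0.09 for Dnajb9, with SE from 0.08 to 0.17.

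For several genes these averages were taken over pairs of opposite sign in pair-fed liver. At 0 h the AM21 pair-fed array lay above the untreated one for Hyou1 (by 0.63), Creld2 (0.54), Hspa5 (0.42), Xbp1 (0.39), Manf (0.32), Pdia4 (0.23) and Dnajb9 (0.22). At 24 h it lay below for the same genes, with differences of -0.48, -0.50, -0.27, -0.36, -0.32, -0.19 and -0.18. Herpud1 had the opposite signs, -0.33 at 0 h and 0.13 at 24 h. In ethanol-fed liver the AM21 differences of these genes were between -0.19 and 0.13, apart from Dnajb9 at 0 h (0.35) and Herpud1 at 0 h (0.24) and 24 h (0.22). Each of these is a difference of 2 arrays with no replicate check. For Hspa5, Pdia4, Hyou1 and Creld2 the untreated pair-fed pool gave the lowest array of all at 0 h and the highest at 24 h. Both signs of these genes therefore share that pool, and an effect of AM21 cannot be told apart from it. The share of all genes with this change of sign was not counted. Other lists had medians that changed sign in the same pair-fed pairs. These were 0.16 at 0 h and -0.24 at 24 h for N-glycosylation, 0.13 and -0.17 for ER-Golgi transport and 0.16 and -0.15 for sensors and regulators. Oxidative folding was below 0 at both times (-0.07 and -0.19). The change of sign was therefore not particular to the 10 genes. The PHx response differed between AM21 and untreated pools in none of the 10 genes by limma (0.0% of all genes passed). At an unadjusted p under 0.05 there was 1, Creld2 (6.95% of all genes), with a difference of -0.68 ± 0.23 (adjusted p = 0.602). Hyou1 followed with -0.60 ± 0.27 (adjusted p = 0.721). Whether AM21 acted differently in the 2 diets was not tested.

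**Figure D5:**
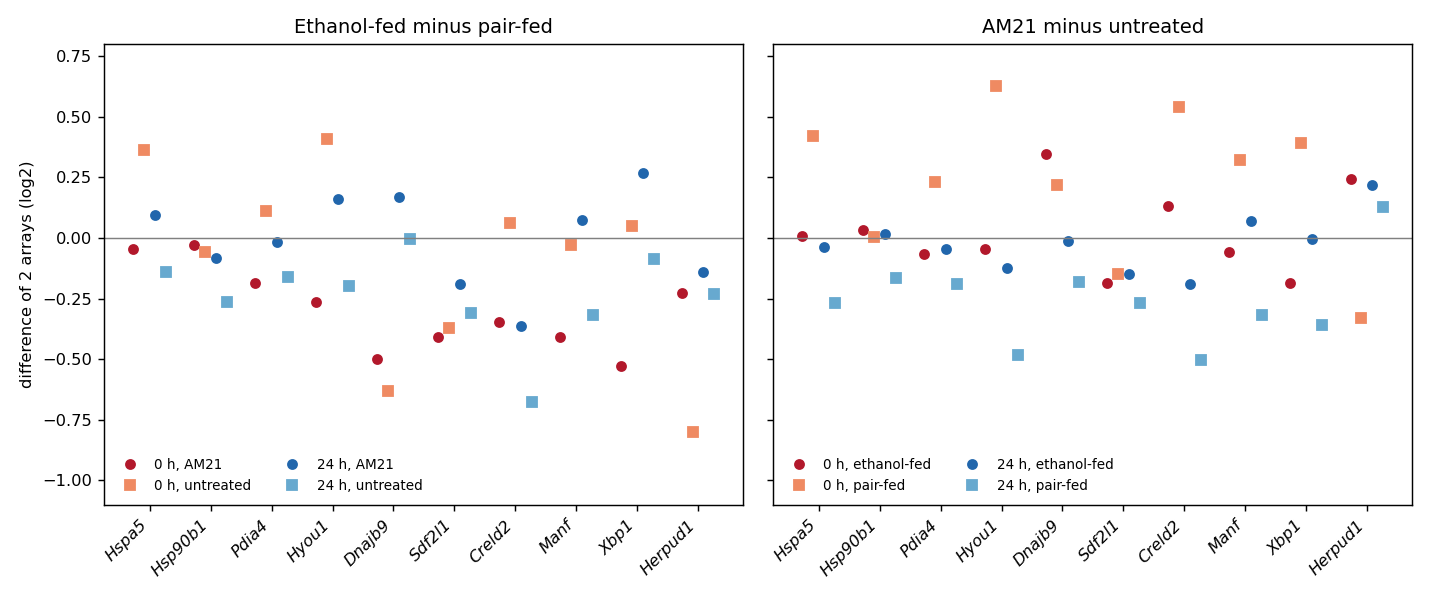
Differences of single arrays (log2) for the 10 genes, ethanol-fed minus pair-fed on the left and AM21 minus untreated on the right, at 0 h and 24 h. Sdf2l1 lies below 0 in every pair of both panels, and the pair-fed AM21 differences of Hspa5, Hyou1, Creld2, Manf, Pdia4, Xbp1 and Dnajb9 are above 0 at 0 h and below 0 at 24 h. The share of all genes with this change of sign was not counted.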

How the data were processed

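RNA of each group was pooled before hybridisation, per the labels' protocols. The authors deposited log2 values, made by RMA with the program Expression Console from Affymetrix, which the submitters' processing notes name without a version. RMA gives all arrays nearly 1 distribution, which can hide changes common to most genes. An array has no sequencing depth. Precision rests on the 4 pools for the PHx response and, as fitted, on the 8 arrays for diet and AM21.

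Of 36685 probe sets, 18511 name 1 gene symbol in the platform annotation, 575 several and 17599 none. Where a gene had several, the brightest stood for it. The 8690 genes averaging at least 5 (log2) entered limma 3.58.1 (R 4.3.3), and p-values were adjusted over all of them by the Benjamini-Hochberg method. The PHx response and its interactions had the pool as a fixed block, since the labels' animal identifiers show that a pool gave both times. The interactions leave 1 residual degree of freedom. Diet and AM21 were fitted additively, with pools as random blocks. Their estimated correlation, -0.371, was set to 0, so the 8 arrays counted as independent although there were 4 pools. Fits on pool means, on each time alone and without single pools (PHx) or single arrays (diet and AM21) were among the alternatives. Fits were tested on simulated arrays with independent noise on each array. These held no pool effect, so the handling of pools was not tested by them. Marker levels were summed as powers of 2 of the log2 values.

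The members, lists and rules for naming were chosen with earlier results of these data known. All members are named. From each of the 8 other lists of the endoplasmic reticulum, up to 3 higher and 3 lower genes per comparison are named by the size of their t statistic, with Ern1 and Atf6 always. Marker lists are given by their counts. Likeness adds 5, 3 and 3 genes most like Hspa5, Xbp1 and Herpud1. Atf4, Ddit3 and the genes named for a promoter element lie outside that rule and were chosen after their values were seen.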

Additional observations from a re-analysis of the deposited data

Results flagged for a closer look

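In Hspa5 the 0 h array of the untreated pair-fed pool, at 10.75, stood far below the other 0 h arrays by Dixon's criterion, and in Dnajb9 the 24 h array of the AM21 pair-fed pool, at 9.38, stood far below the other 24 h arrays. Chance sets an array apart in about 1 of 20 such groups, and each of the 10 genes was looked at in both times. The PHx responses of each gene over the pools were searched by the same criterion, and none stood apart. Dnajb9 also drew attention because its response to PHx was above 0 in both ethanol-fed pools and below 0 in both pair-fed pools. The difference in response, ethanol-fed minus pair-fed, was 0.65 ± 0.20, and the test of that difference did not pass (limma, adjusted p = 0.253).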

How the results depend on the processing

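Hyou1, Sdf2l1, Creld2 and Herpud1 passed for the PHx response under every alternative run. Of the 10 genes 7 passed in the fit reported, 5 with no filter on low levels (without Hsp90b1 and Pdia4), 6 with arrays centred on their medians (without Pdia4), and 4 to 5 with 1 pool left out. The 4 were reached without the AM21 ethanol-fed pool, where Manf was lost too. Without the replicate block for pools, 7 passed and no call of a member changed. The diet and AM21 fits gave 0 members under every alternative. The diet comparison of the PHx response gave 1, Dnajb9, with an intensity-dependent variance prior, where 226 of all genes passed instead of 46.

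Over all genes the PHx count was 2443, 1831 with no filter on low levels, 2702 without the block and 1466 to 1705 with 1 pool left out. The diet count was 40, 11 with no filter, 102 on pool means, 101 at 0 h alone, 0 at 24 h alone, 88 with the variance prior and 0 to 18 with 1 array left out. The diet comparison of responses gave 0 with no filter, 2 without the replicate block, 16 at a level minimum of 6 and 27 after quantile normalization. The AM21 comparison of responses gave 51 with the variance prior and 0 in the fit reported. The causes of these shifts were not tested.

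Signs turned only for differences that did not pass. Quantile normalization turned the diet difference of Hyou1 (-0.0033), the AM21 differences of Hyou1 (0.0203) and Creld2 (0.0254) and the AM21 difference in response of Sdf2l1 (0.021). Centring turned the AM21 differences of Pdia4 (0.005), Hyou1 (0.0161) and Creld2 (0.0173). At 24 h alone the diet differences of Hspa5 (-0.0231), Hyou1 (-0.0202), Dnajb9 (0.0828) and Xbp1 (0.0903) turned, as did the AM21 differences of Hspa5 (-0.1526), Dnajb9 (-0.0971) and Manf (-0.1234). At 0 h alone the AM21 differences turned for Hsp90b1 (0.0175), Pdia4 (0.0832), Hyou1 (0.2916), Creld2 (0.337), Xbp1 (0.1017) and Herpud1 (-0.0437). With 1 pool left out, the PHx response of Dnajb9 ran from -0.2544 to 0.0877. With 1 array left out, the diet difference ran from -0.0514 to 0.166 for Hspa5, -0.1441 to 0.173 for Hyou1 and -0.1952 to 0.0745 for Xbp1. With 1 array left out, the AM21 difference ran from -0.0889 to 0.1285 for Hspa5, -0.0597 to 0.0223 for Hsp90b1, -0.0853 to 0.0323 for Pdia4, -0.1761 to 0.1247 for Hyou1, -0.0523 to 0.2421 for Dnajb9, -0.1883 to 0.1668 for Creld2, -0.0869 to 0.0971 for Manf, -0.1891 to 0.0806 for Xbp1 and -0.0208 to 0.2048 for Herpud1.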
